A study of Mus musculus with 16 samples.

Results

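Covered here are 9 genes known from regulatory T cells, Foxp3, Il2ra, Ikzf2, Ccr8, Izumo1r, Lrrc32, Il10, Ebi3 and Itgae, chosen by name out of the 47311 genes in the deposited tables. All 9 were found there, and all 9 passed the filter on low counts that left 16154 genes for testing. The RNA came from whole tumours of 16 female C57BL/6J mice, all obese. Of these, 8 mice were given anti-PD-1, an antibody that blocks an inhibitory receptor of T cells, and 8 were given an IgG2a isotype control. Both groups received 200 ug of antibody by intraperitoneal injection every 3 days, starting 3 days after implantation and ending at 21 days. All mice ate a high-fat diet (60% of the energy as fat) between 8 and 26 weeks of age, and all carried E0771-luciferase cells, a mouse mammary cancer line with a luciferase reporter, placed in mammary gland 4 as 250000 cells in 25% matrigel. The tumours are therefore implants of a cell line in obese hosts with their own immune system, and no tumour of a lean mouse was analysed here.

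Regulatory T cells are the CD4 T cells that restrain other lymphocytes, and their identity depends on the transcription factor FOXP3. They consume interleukin-2 through the high-affinity receptor chain encoded by Il2ra, display latent TGF-beta on the docking protein encoded by Lrrc32, and secrete inhibitory cytokines such as interleukin-10. In tumours they often carry the chemokine receptor CCR8, and they are counted against CD8 T cells because the balance of the 2 populations is used to describe how suppressed a tumour is. Several of the 9 genes are not limited to these cells: Lrrc32 is also known from endothelium and platelets, Il10 and Ebi3 from macrophages and dendritic cells, and Itgae from CD8 T cells and dendritic cells.

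Foxp3 (ENSMUSG00000039521, GRCm38 chromosome X, 7573644 to 7595245, plus strand) had 44.6 to 242 estimated reads per tumour. The deposited tables hold 4 of its transcripts, all protein coding. Over the 16 tumours 73.5% of the Foxp3 reads were assigned to Foxp3-203, 18.4% to Foxp3-201, 8.06% to Foxp3-204 and 0% to Foxp3-202, although in single tumours the share of Foxp3-203 ranged over 0 to 100%. RefSeq promoter windows (GRCm38.p6, 250 bases before to 50 after a start) were found for 5 of the 9 genes. They are shown for Foxp3, Il2ra and Ccr8, because transcription of these genes is annotated to start there. Across tumours Il2ra and Ccr8 moved with Foxp3 by Pearson's r but did not pass by Spearman's rho. The windows of Izumo1r, which had the same outcome, and of Ebi3, which passed by rho alone, are not printed. All 4 printed windows are on the plus strand and are given 5′ to 3′. Capitals mark matches to 4 motifs searched on both strands: forkhead (TGTTTAC), STAT (TTCNNNGAA), NFAT (GGAAAA) and AP-1 (TGANTCA).
Foxp3 start 1, chrX:7579426-7579725: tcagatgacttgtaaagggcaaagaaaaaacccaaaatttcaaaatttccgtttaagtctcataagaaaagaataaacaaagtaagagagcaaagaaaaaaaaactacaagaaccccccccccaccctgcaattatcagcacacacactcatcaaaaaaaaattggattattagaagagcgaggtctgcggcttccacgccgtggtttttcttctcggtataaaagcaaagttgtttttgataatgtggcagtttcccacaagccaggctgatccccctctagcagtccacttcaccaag
Foxp3 start 2, chrX:7580233-7580532: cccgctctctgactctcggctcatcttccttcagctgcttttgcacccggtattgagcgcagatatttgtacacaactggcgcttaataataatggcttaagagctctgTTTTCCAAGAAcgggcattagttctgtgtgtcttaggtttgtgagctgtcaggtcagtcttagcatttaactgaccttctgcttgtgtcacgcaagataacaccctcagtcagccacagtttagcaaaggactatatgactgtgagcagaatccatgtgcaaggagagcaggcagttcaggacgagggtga
Il2ra, chr2:11642542-11642841: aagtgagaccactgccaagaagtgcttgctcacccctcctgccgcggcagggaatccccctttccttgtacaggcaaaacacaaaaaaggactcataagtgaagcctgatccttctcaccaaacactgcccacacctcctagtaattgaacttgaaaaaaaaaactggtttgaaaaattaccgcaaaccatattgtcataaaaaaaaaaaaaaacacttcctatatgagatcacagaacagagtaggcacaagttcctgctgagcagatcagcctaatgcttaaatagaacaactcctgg
Ccr8, chr9:120091883-120092182: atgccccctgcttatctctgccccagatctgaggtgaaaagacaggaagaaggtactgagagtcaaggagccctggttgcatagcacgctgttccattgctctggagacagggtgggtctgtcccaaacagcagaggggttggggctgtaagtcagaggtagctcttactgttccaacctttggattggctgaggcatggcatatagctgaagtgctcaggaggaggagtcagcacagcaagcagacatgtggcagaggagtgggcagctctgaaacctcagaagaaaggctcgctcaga
The first Foxp3 window holds the annotated starts of Foxp3-203 and Foxp3-204, which together took 81.6% of the Foxp3 reads, and it has no match to the 4 motifs. The second holds the start of Foxp3-202, which took no read. In that second window STAT matched as TTCCAAGAA at -139 to -131 from the start, and NFAT matched on the reverse strand as TTTTCC at -141 to -136, overlapping it. No motif matched in the windows of Il2ra, Ccr8, Ebi3 or Izumo1r. Among all 32851 promoter windows, 3.65% held the forkhead motif, 8.30% the STAT motif, 23.4% the NFAT motif and 7.81% the AP-1 motif.

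Library totals lay between 59036535 and 82591064 estimated reads, and each tumour has its own animal number. The tumours that stood apart were 3. IgG2a replicate 7 had the highest summed adipocyte, erythroid, endothelial, pericyte, fibroblast and macrophage markers. IgG2a replicate 3 had 28526 CPM (read counts relative to the TMM-scaled library total) of skeletal muscle markers, against at most 139.8 CPM in any other tumour. Anti-PD-1 replicate 6 had 38993 transcripts with a read, where the other 15 tumours had 47997 to 55476. The T cell markers were present in every tumour: all 10 of 10 were tested, and their summed level was 21.8 to 80.2 CPM, with a median of 31.6, under anti-PD-1 and 17.2 to 47.3 CPM, with a median of 33.0, under IgG2a. Cd40lg, a marker of activated CD4 T cells, had no read in 10 tumours. In bulk tissue, fewer regulatory T cells and less RNA per cell cannot be told apart.

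Per unit of transcript length, the authors' TPM ordered the 9 genes from the cytokine subunit Ebi3 down to the surface receptor Izumo1r. Ebi3 averaged 12.5 ± 5.84 TPM and Lrrc32 averaged 4.66 ± 5.94 TPM (SD over 16 tumours each). Ikzf2 averaged 2.64 ± 1.07 TPM, Il10 2.50 ± 1.38 TPM and Il2ra 1.10 ± 0.397 TPM. Next came Ccr8 at 0.731 ± 0.485 TPM, Foxp3 at 0.579 ± 0.273 TPM, Itgae at 0.389 ± 0.222 TPM and Izumo1r at 0.276 ± 0.184 TPM. Not every step of that order was wider than the spread. Ebi3 exceeded Lrrc32, and Il10 exceeded Il2ra, in 15 of 16 tumours. Lrrc32 exceeded Ikzf2 in only 11 of 16, Ikzf2 exceeded Il10 in 10, Ccr8 exceeded Foxp3 in 10 and Itgae exceeded Izumo1r in 9, so these neighbours were not separated. The Lrrc32 mean includes 25.9 TPM in IgG2a replicate 7. Median TPM under anti-PD-1 was 2.62 for Lrrc32 and 1.83 for Ikzf2, and under IgG2a 3.24 for Lrrc32 and 3.33 for Ikzf2.

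No regulatory T cell gene passed the treatment test. The edgeR quasi-likelihood test with Benjamini-Hochberg adjustment called 0 of the 9 genes, beside 0% of the 16154 genes tested. At an unadjusted p under 0.05 it found 1 of the 9, Lrrc32, where 11.4% of all genes were found, 7.9% lower under anti-PD-1 and 3.47% higher. DESeq2 called 4 genes of the whole table and limma-voom 0, and none of the 9 genes was called by any tool. Of the 9 estimates, 8 were lower and 1 was higher under anti-PD-1, at a median of -0.18 log2 units. Among all genes 9192 were lower and 6962 higher, at a median of -0.05.

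Foxp3, the lineage-defining transcription factor, ranged over 1.12 to 2.66 CPM under anti-PD-1, with a median of 1.57, and over 0.663 to 3.48 CPM under IgG2a, with a median of 1.62. The lowest tumour (replicate 4) and the highest tumours (replicates 1 and 8) were all IgG2a tumours, and the treated values lay inside that range. Its log2 fold change was -0.18 ± 0.31 (SE), with a 95% interval of -0.83 to 0.47 and an adjusted p of 0.793 by edgeR. Without IgG2a replicate 1 the estimate was 0.0062. Ikzf2, which encodes Helios, a zinc finger factor of regulatory T cells, had 11.8 to 28.7 CPM under anti-PD-1, with a median of 14.4, and 8.30 to 26.3 CPM under IgG2a, with a median of 20.4. Of the treated tumours only 2 were above the median of the IgG2a tumours, yet IgG2a replicate 7 was the lowest tumour of all. The log2 fold change of Ikzf2 was -0.20 ± 0.22 (SE, 95% interval -0.67 to 0.27, adjusted p = 0.662 by edgeR). It was -0.35 without anti-PD-1 replicate 3, -0.32 without IgG2a replicate 7 and -0.13 without IgG2a replicate 5, and -0.42 (unadjusted p = 0.0134) by limma-voom with quality weights.

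Among the surface receptors, Il2ra encodes the alpha chain of the interleukin-2 receptor. It ranged over 2.19 to 7.18 CPM under anti-PD-1, with a median of 3.03, and over 2.96 to 6.56 CPM under IgG2a, with a median of 3.93. In each group 1 tumour stood above the rest, anti-PD-1 replicate 5 and IgG2a replicate 1. The log2 fold change was -0.15 ± 0.25 (SE, 95% interval -0.68 to 0.37, adjusted p = 0.776 by edgeR), and it was -0.37 without anti-PD-1 replicate 5 and -0.018 without IgG2a replicate 1. Ccr8, the receptor for the chemokines CCL1 and CCL8 in mice, had 0.112 to 1.50 CPM under anti-PD-1, with a median of 0.479, and 0.177 to 1.06 CPM under IgG2a, with a median of 0.703. Both ends of its range were treated tumours, replicates 4 and 5. For Ccr8 the log2 fold change was -0.24 ± 0.49 (SE, 95% interval -1.26 to 0.79, adjusted p = 0.823 by edgeR), and -0.66 without anti-PD-1 replicate 5.

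Izumo1r encodes a folate receptor family protein found on regulatory T cells. It was the least abundant of the 9, with 2 to 60 reads per tumour under anti-PD-1 and 0 to 28 under IgG2a. That is 0.0311 to 0.930 CPM, with a median of 0.256, under anti-PD-1 and 0 to 0.368 CPM, with a median of 0.199, under IgG2a. The tumour without a read was IgG2a replicate 4, where a count of 0 allows up to 3 reads, or 0.0442 CPM, in counting error alone. Izumo1r was the single gene with its estimate above 0, at a log2 fold change of 0.68 ± 0.67 (SE, 95% interval -0.73 to 2.08, adjusted p = 0.622 by edgeR). It was 0.26 without anti-PD-1 replicate 6, the tumour with few detected transcripts. Itgae, the alpha E integrin chain that binds E-cadherin, had 0.496 to 1.95 CPM under anti-PD-1, with a median of 0.813, and 0.811 to 3.46 CPM under IgG2a, with a median of 1.28. Of the treated tumours 2 were above the median of the IgG2a tumours, and the highest value was IgG2a replicate 3, the tumour with muscle markers. For Itgae the log2 fold change was -0.58 ± 0.39 (SE, 95% interval -1.40 to 0.25, adjusted p = 0.480 by edgeR), and -0.29 without IgG2a replicate 3.

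Lrrc32, the docking receptor for latent TGF-beta, had the largest estimate of the 9. It ranged over 3.26 to 13.5 CPM under anti-PD-1, with a median of 8.43, and over 6.36 to 86.8 CPM under IgG2a, with a median of 9.85. The value of 86.8 CPM belonged to IgG2a replicate 7, and the next highest IgG2a tumour had 13.1 CPM. The log2 fold change was -1.20 ± 0.52 (SE, 95% interval -2.30 to -0.10, unadjusted p = 0.0349, adjusted p = 0.434 by edgeR). Without IgG2a replicate 7 it was -0.20 (95% interval -0.73 to 0.32). IgG2a replicate 7 also had 1782 CPM of endothelial markers, against 158 to 313 CPM in the anti-PD-1 tumours, and 529 CPM of pericyte markers, against 108 to 185 CPM; their part in the Lrrc32 estimate was not tested.

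The cytokine genes were split by the same tumour. Il10 had 1.23 to 3.78 CPM under anti-PD-1, with a median of 2.20, and 1.35 to 6.85 CPM under IgG2a, with a median of 1.77. Although 6 of 8 treated tumours exceeded the IgG2a median, the highest value was IgG2a replicate 7, and the log2 fold change was -0.11 ± 0.37 (SE, 95% interval -0.89 to 0.67, adjusted p = 0.897 by edgeR). Ebi3, the subunit shared by interleukin-27 and interleukin-35, had 6.12 to 14.4 CPM under anti-PD-1, with a median of 10.01, and 4.82 to 24.9 CPM under IgG2a, with a median of 10.7. Its log2 fold change was -0.17 ± 0.30 (SE, 95% interval -0.80 to 0.47, adjusted p = 0.800 by edgeR). Without IgG2a replicate 7 the estimates were 0.29 for Il10 (95% interval -0.31 to 0.89) and 0.12 for Ebi3 (95% interval -0.39 to 0.63), so the sign of both depended on that tumour.

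**Figure D1:**
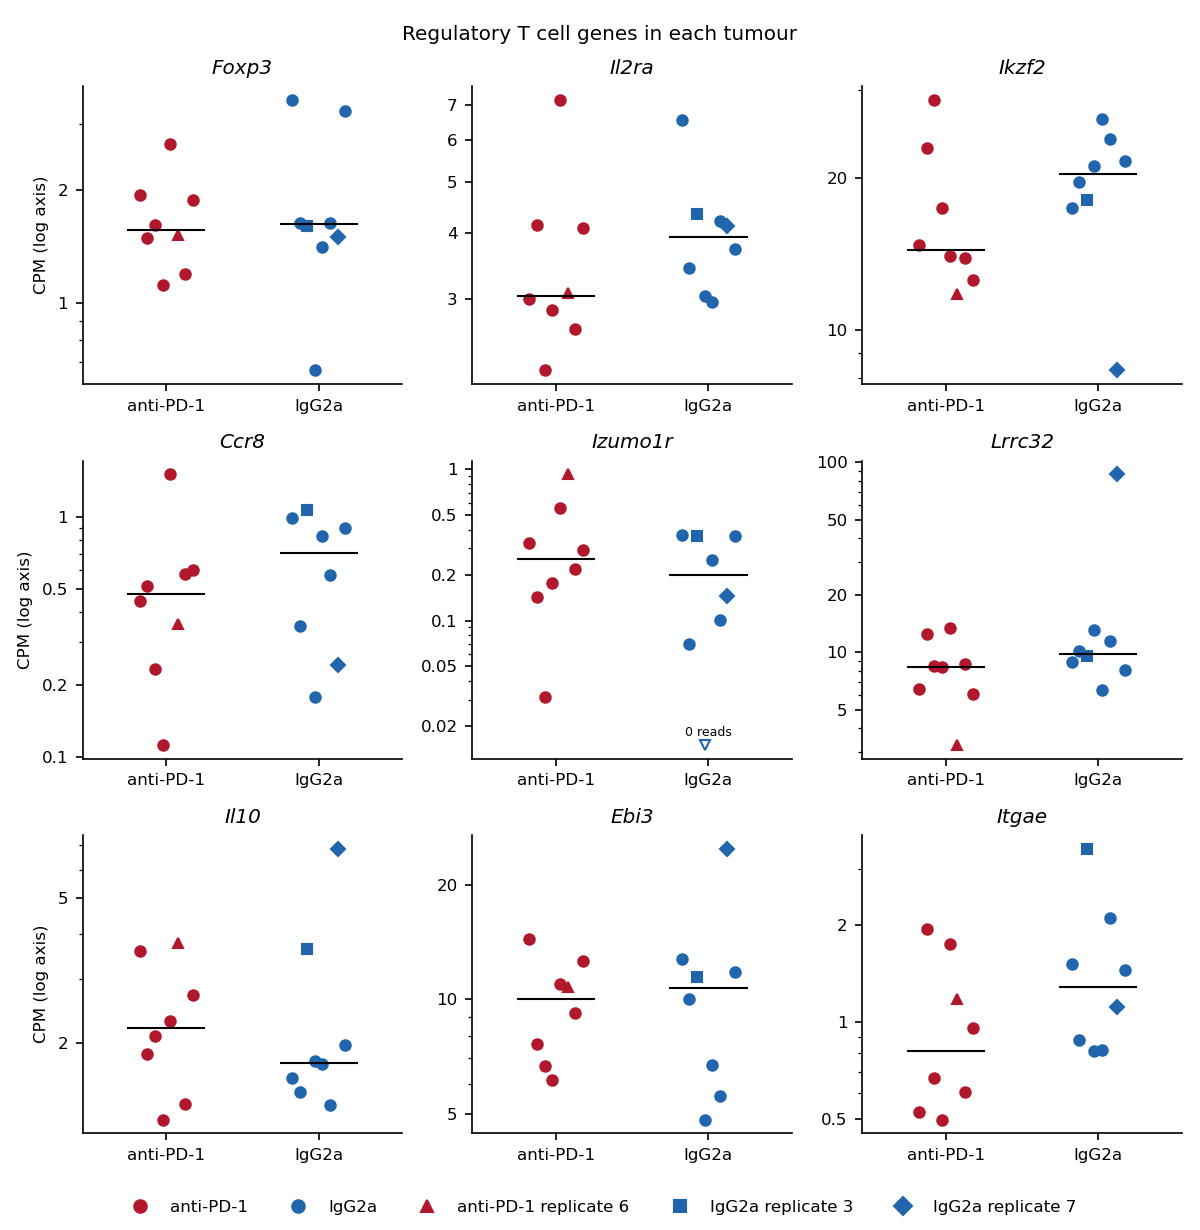
Level of each of the 9 genes in CPM (log axis) in the 8 anti-PD-1 and 8 IgG2a tumours, 1 point per tumour, with a bar at the group median. The groups overlap for every gene, the open triangle marks the IgG2a tumour with 0 Izumo1r reads (drawn at the foot of the axis), and IgG2a replicate 7 is the highest point for Lrrc32 (86.8 CPM), Il10 (6.85 CPM) and Ebi3 (24.9 CPM).

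**Figure D2:**
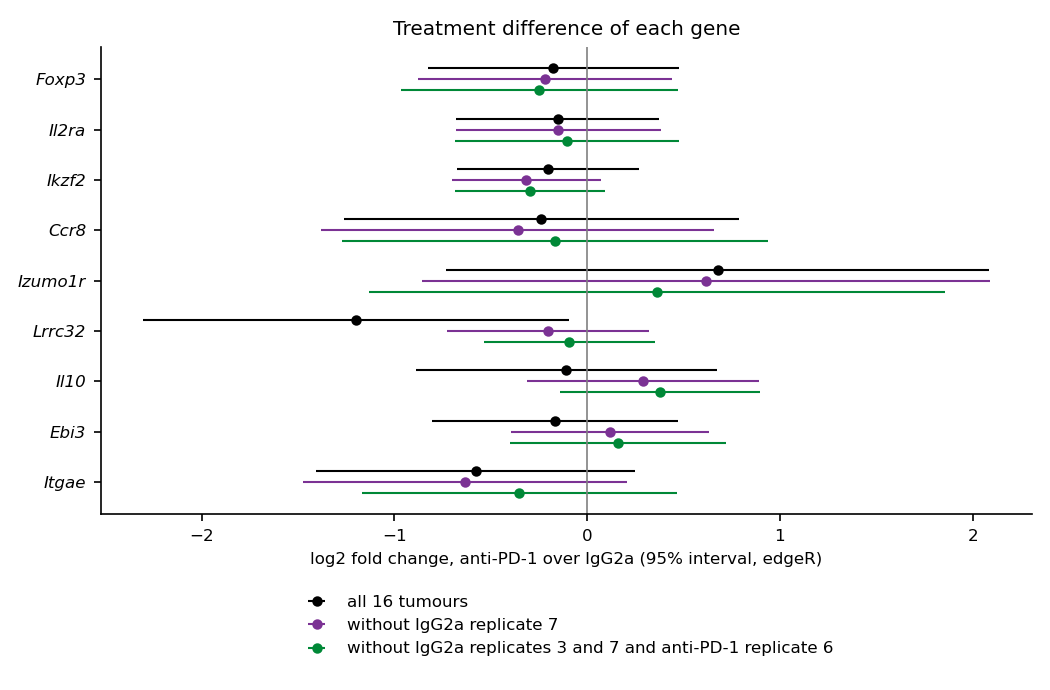
Log2 fold change of anti-PD-1 over IgG2a with its 95% interval from edgeR, for all 16 tumours, for 15 (IgG2a replicate 7 left out) and for 13 (the 3 tumours that stood apart left out). The Lrrc32 interval, which excludes 0 with all tumours, includes it without IgG2a replicate 7, and the Il10 and Ebi3 estimates change sign.

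Because T cell marker RNA varied between tumours, each gene was also set against Cd3e, which all T cells express, and Cd8a, which marks CD8 T cells. The Cd8a level sums all its transcripts. Over the 16 tumours 27.9% of its reads were assigned to a retained-intron transcript, Cd8a-203, with 0 to 60.1% in single tumours. Cd3e itself had a log2 fold change of -0.10 ± 0.40, Cd4 one of -0.17 ± 0.46 and Cd8a one of 0.35 ± 0.39 (SE), with adjusted p of 0.908, 0.873 and 0.668 by edgeR. The ratio of Foxp3 to Cd3e CPM was 0.395 to 1.27 under anti-PD-1, with a median of 0.580, and 0.365 to 0.963 under IgG2a, with a median of 0.542. The groups overlapped, although the highest treated tumours (replicates 2 and 6) lay above every IgG2a tumour, and 5 treated tumours were above the median of the IgG2a tumours. On the log2 scale the difference was 0.14 ± 0.29 (SE, n = 8 each, two-sided exact permutation p = 0.617 over 12870 assignments). It was 0.0019 without anti-PD-1 replicate 6, the tumour with few detected transcripts and the lowest Cd3e level (1.19 CPM). The summed T cell markers of that tumour were not low, at 39.3 CPM beside an anti-PD-1 median of 31.6 CPM. Its ratios to Cd3e therefore rest on a Cd3e value unlike that sum. Relative to Cd8a, Foxp3 was at 0.137 to 0.682 under anti-PD-1, with a median of 0.230, and at 0.178 to 0.633 under IgG2a, with a median of 0.311. Only 2 of 8 treated tumours exceeded the IgG2a median, but the highest ratio was also a treated one, replicate 2. The log2 difference was -0.31 ± 0.34 (SE, n = 8 each, two-sided exact permutation p = 0.370), and both p were 0.617 when adjusted over the 2 ratios.

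**Figure D3:**
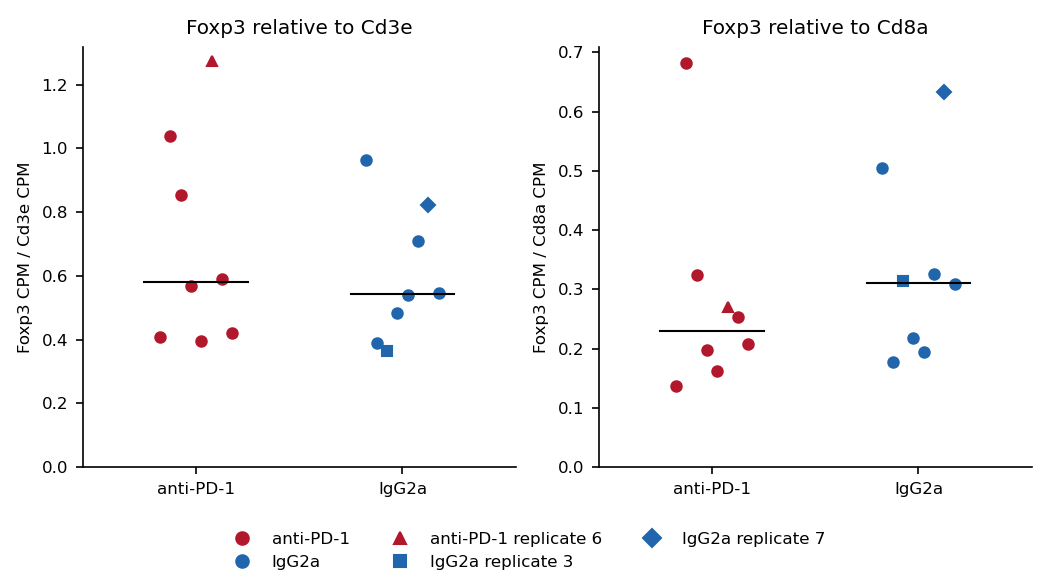
Ratio of Foxp3 CPM to Cd3e CPM (left) and to Cd8a CPM (right) in each tumour, with a bar at the group median. Medians were 0.580 under anti-PD-1 and 0.542 under IgG2a for Cd3e, and 0.230 under anti-PD-1 and 0.311 under IgG2a for Cd8a, with overlapping groups in both panels.

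For the other 8 genes the ratios overlapped between the groups too. A limma test of log2 ratios over 16153 genes called none of the 9 genes in either ratio, beside 0.031% of genes called for the Cd3e ratio and 0.00619% for the Cd8a ratio. The largest difference relative to Cd3e was that of Izumo1r, at 0.82 log2 units (95% interval -0.57 to 2.21), and it was 0.41 without anti-PD-1 replicate 6. Relative to Cd8a it was that of Lrrc32, at -0.93 (95% interval -1.92 to 0.06), followed by Itgae at -0.81 (95% interval -2.04 to 0.41). Without IgG2a replicate 7 the order turned, with -0.35 for Lrrc32 and -0.68 for Itgae. With all tumours, the SE from the spread within the groups was 0.76 for Lrrc32 and 0.58 for Itgae. In the limma test the SE was 0.51 for Lrrc32 and 0.63 for Itgae, so the Lrrc32 interval is narrower than its own spread gives. Relative to Cd8a, 8 of the 9 genes had a lower estimate under anti-PD-1, the exception being Izumo1r, and these 9 differences share the same 16 Cd8a values. Lower ratios were common in the whole table too. Of 16153 genes, 329 had an unadjusted p under 0.05 for this ratio by limma, and only 28 of those were higher. The 8 of 9 is therefore no result about these genes. Without IgG2a replicate 7 the estimates of Il10 (0.19) and Ebi3 (0.082) relative to Cd8a were above 0 as well. For Il2ra and Itgae, 1 of 8 treated tumours exceeded the IgG2a median of the Cd8a ratio. Dividing by Cd3e left the spread of Foxp3 much as it was: the SD over the 16 tumours was 0.56 log2 units for the ratio and 0.57 for Foxp3 itself. For Il2ra it was 0.69 for the ratio and 0.45 for the gene.

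Across the 16 tumours Foxp3 moved with T cell genes and, by Pearson's r alone, with the receptors Ccr8, Il2ra and Izumo1r. It did not move with Ikzf2, Lrrc32 or Il10. Of 11 relations, 6 passed by Pearson's r and 4 by Spearman's rho, each with 100000 permutations and Benjamini-Hochberg adjustment over the 11. With Cd3e, r was 0.71 (adjusted permutation p = 0.00742) and rho 0.74 (adjusted p = 0.0186). For Cd4 the values were r = 0.76 (adjusted permutation p = 0.00561) and rho = 0.60 (adjusted p = 0.0474), and for Cd8a r = 0.59 (adjusted permutation p = 0.0294) and rho = 0.68 (adjusted p = 0.0280). Ccr8 gave r = 0.69 (adjusted permutation p = 0.0106) and rho = 0.56 (adjusted p = 0.0583), and Il2ra gave r = 0.61 (adjusted permutation p = 0.0294) and rho = 0.52 (adjusted p = 0.0765). Izumo1r gave r = 0.60 (adjusted permutation p = 0.0294) and rho = 0.48 (adjusted p = 0.0973). Ebi3 passed by rank alone, with rho = 0.61 (adjusted permutation p = 0.0474) and r = 0.52 (adjusted p = 0.0624).

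The tumours farthest from the median Foxp3 level were IgG2a replicates 4 and 1, its lowest and highest. Without them r was not smaller for Cd3e (0.74, adjusted permutation p = 0.0108), the single relation that still passed, or for Cd8a (0.61). It was smaller for Ccr8 (0.59), Cd4 (0.58), Il2ra (0.52) and most of all Izumo1r (0.32), so these relations rested in part on those tumours. Within the groups, Foxp3 and Ccr8 had r = 0.74 in anti-PD-1 tumours and 0.72 in IgG2a tumours, and Foxp3 and Il2ra had 0.72 in anti-PD-1 tumours and 0.68 in IgG2a tumours. Izumo1r differed more, with r = 0.34 in anti-PD-1 tumours and 0.81 in IgG2a tumours, a difference that was not tested. The animal numbers fall into 2 ranges, and the r of Foxp3 with Cd3e was 0.33 in the 6 animals with the lower numbers and 0.82 in the 10 with the higher numbers. For Ccr8 it was 0.49 in the lower and 0.75 in the higher range, and for Il2ra 0.66 in the lower and 0.64 in the higher. Foxp3 had no relation that passed with Itgae (r = 0.38, rho = 0.38), Il10 (r = 0.10, rho = 0.22), Ikzf2 (r = -0.07, rho = -0.09) or Lrrc32 (r = -0.10, rho = -0.11), with adjusted permutation p of 0.204 to 0.804 for r and 0.196 to 0.747 for rho.

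Among the 28 pairs that leave out Foxp3, r ran between -0.76 and 0.74 and was positive in 21. These pairs are described over the same 16 tumours, without a test. The pairs with r of at least 0.5 numbered 6. Of these, 4 joined surface receptor genes: Il2ra with Itgae (r = 0.69, rho = 0.88), Il2ra with Ccr8 (r = 0.65, rho = 0.61), Ccr8 with Itgae (r = 0.62, rho = 0.61) and Ccr8 with Izumo1r (r = 0.60, rho = 0.68). The other pairs were Il10 with Ebi3 (r = 0.74, rho = 0.63) and Izumo1r with Ebi3 (r = 0.53, rho = 0.60). Ikzf2 ran against both cytokine genes, with r = -0.76 and rho = -0.63 for Ebi3 and r = -0.65 and rho = -0.45 for Il10. Without the 3 tumours that stood apart, r was 0.76 for Il2ra with Itgae, 0.56 for Il10 with Ebi3, -0.63 for Ikzf2 with Ebi3 and -0.31 for Ikzf2 with Il10.

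**Figure D4:**
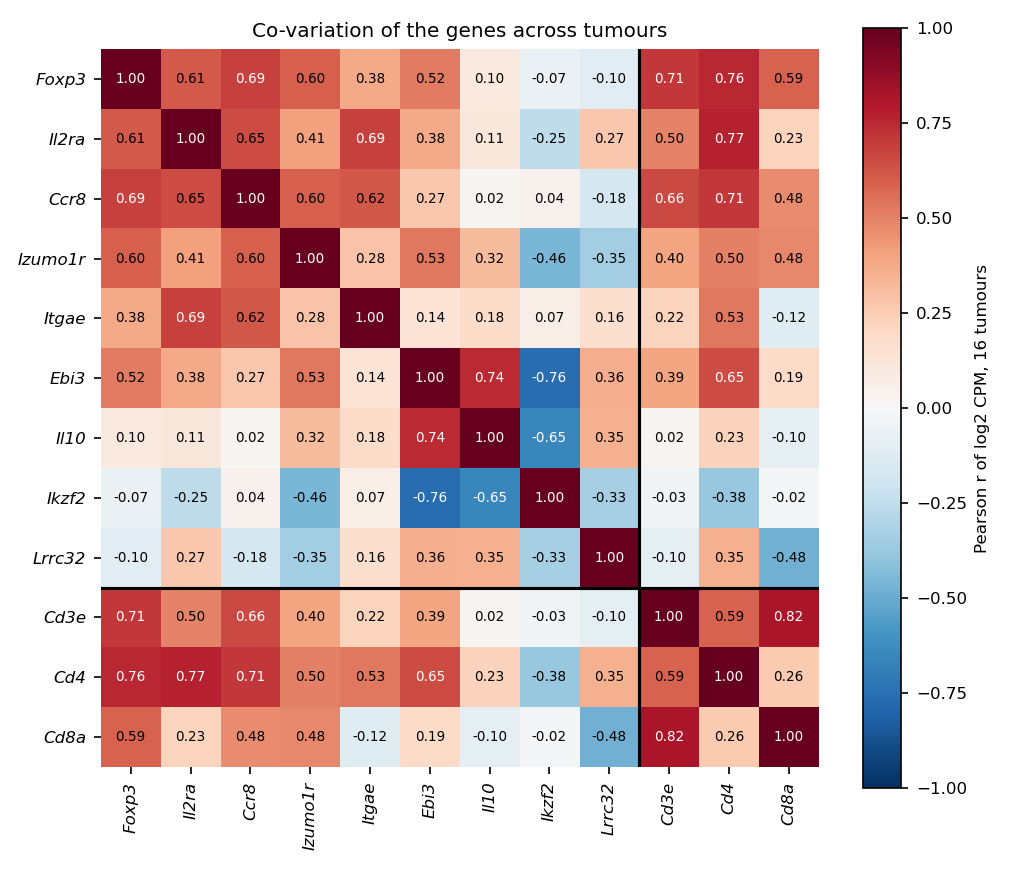
Pearson r of log2 CPM between the 9 genes and with Cd3e, Cd4 and Cd8a (beyond the black lines) over 16 tumours. Foxp3, Il2ra, Ccr8 and Cd4 share r of 0.61 to 0.77, whereas Ikzf2 has r of -0.76 with Ebi3 and -0.65 with Il10.

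Each of the 9 genes was then set against the summed CPM of 16 marker lists, as log2(sum + 1), for the cell types a mammary tumour can hold, 144 relations in all. Of these, 26 passed by r, 19 by rho and 15 by both after adjustment over the 144. Foxp3 passed both with the T cell markers (r = 0.77, adjusted permutation p = 0.00792, rho = 0.75, adjusted p = 0.0220), as did Izumo1r (r = 0.71, adjusted permutation p = 0.0200, rho = 0.77, adjusted p = 0.0156) and Ccr8 (r = 0.69, adjusted permutation p = 0.0224, rho = 0.66, adjusted p = 0.0492). Il2ra passed both with the CD4 markers (r = 0.79, adjusted permutation p = 0.00600, rho = 0.69, adjusted p = 0.0367), a list in which Cd4 made up 98.7% of the sum, and so did Ccr8 (r = 0.70, adjusted permutation p = 0.0224, rho = 0.71, adjusted p = 0.0324). Itgae passed with no list. Leaving out the 2 tumours farthest from the median of the marker sum, r was 0.69 for Foxp3, 0.58 for Izumo1r and 0.50 for Ccr8 with the T cell markers, and 0.58 for Il2ra with the CD4 markers. Outside the T cell lists, Izumo1r passed by rho alone with macrophage markers (rho = 0.71, adjusted permutation p = 0.0306, r = 0.53, adjusted p = 0.113). Il2ra passed by r alone with NK cell markers (r = 0.66, adjusted permutation p = 0.0341, rho = 0.42, adjusted p = 0.278).

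The remaining 4 genes passed both with lists outside the T cells, and Ebi3 with the CD4 markers as well. Lrrc32 followed pericyte markers (r = 0.95, adjusted permutation p = 0.00048, rho = 0.84, adjusted p = 0.00768), and r was 0.76 without the 3 tumours that stood apart. It also followed endothelial markers (r = 0.89, adjusted permutation p = 0.0164, rho = 0.72, adjusted p = 0.0306), and r was 0.55 without the same 3 tumours. Without IgG2a replicate 7 and anti-PD-1 replicate 5, the tumours farthest from the median endothelial sum, r was 0.35. Ebi3 followed macrophage markers (r = 0.92, adjusted permutation p = 0.00048, rho = 0.77, adjusted p = 0.0189), with r = 0.88 without the 3 tumours. Ebi3 also passed both with NK cell markers (r = 0.69, adjusted permutation p = 0.0224, rho = 0.82, adjusted p = 0.00768) and with the CD4 markers (r = 0.65, adjusted permutation p = 0.0377, rho = 0.68, adjusted p = 0.0459). Ikzf2 went the other way with the macrophage markers (r = -0.87, adjusted permutation p = 0.00048, rho = -0.82, adjusted p = 0.00768), with r = -0.77 without the 3 tumours. Within groups this relation was r = -0.89 under anti-PD-1 and -0.92 under IgG2a. Il10 passed both with adipocyte markers (r = 0.82, adjusted permutation p = 0.00600, rho = 0.80, adjusted p = 0.0138), and r was 0.52 without the 3 tumours. With macrophage markers Il10 had r = 0.73 (adjusted permutation p = 0.0200) and rho = 0.54 (adjusted p = 0.140), and r was 0.35 without the 3 tumours. The other relations that passed both were Ikzf2 with fibroblast markers (r = -0.74, adjusted permutation p = 0.0164, rho = -0.70, adjusted p = 0.0337), Il10 with epithelial and tumour markers (r = 0.75, adjusted permutation p = 0.0224, rho = 0.71, adjusted p = 0.0337; r was 0.26 without the 3 tumours) and Il10 with the dendritic cell list (r = -0.82, adjusted permutation p = 0.00468, rho = -0.79, adjusted p = 0.0138), in which Fscn1 made up 87.3% of the sum and r was -0.50 without the 3 tumours. Summed macrophage markers were 821 to 2176 CPM under anti-PD-1, with a median of 1585, and 692 to 5557 CPM under IgG2a, with a median of 1504.

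**Figure D5:**
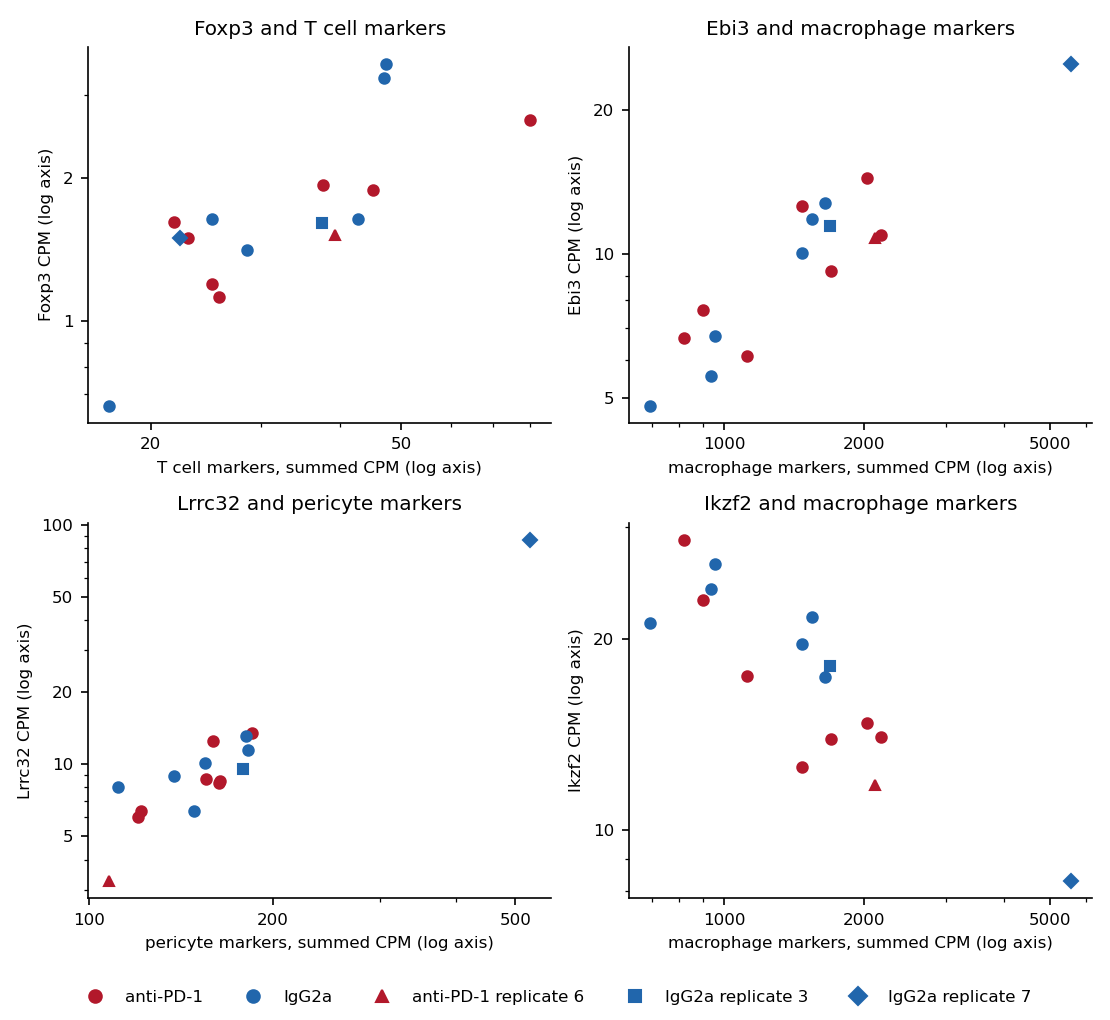
CPM of Foxp3, Ebi3, Lrrc32 and Ikzf2 against the summed CPM of the marker list named in each panel, both on log axes, 1 point per tumour. Foxp3 climbs with T cell markers (r = 0.77), Ebi3 with macrophage markers (r = 0.92) and Lrrc32 with pericyte markers (r = 0.95), where IgG2a replicate 7 lies far from the rest, and Ikzf2 declines with macrophage markers (r = -0.87).

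The protein-coding genes most like Foxp3 were ranked by Spearman's rho over the 16 tumours among 11718, and the first 10 follow. Cd6, a T cell surface receptor, came first with rho = 0.91, followed by the costimulatory receptor Cd27 (rho = 0.87), the GTPase Gimap7 (rho = 0.87) and Tnfrsf18 (rho = 0.84), which encodes GITR, a receptor abundant on regulatory T cells. Next were Ms4a4b (rho = 0.83), Tbc1d10c (rho = 0.81), the NK and T cell receptor Klrk1 (rho = 0.81), the T cell receptor kinase Zap70 (rho = 0.80), the cytokine receptor Flt3 of dendritic cell precursors (rho = 0.79) and the transcription factor Stat4 (rho = 0.77). Without the 3 tumours that stood apart Cd6 had rho = 0.97 and Tnfrsf18 had rho = 0.95. Of 27 further genes known to be high in regulatory T cells, 8 (29.6%) had a rho of at least 0.5 with Foxp3, Ctla4 (rho = 0.72), Icos (rho = 0.66) and Tnfrsf4 (rho = 0.63) among them. The share was 2 of 16 (12.5%) for ligands and partners of the 9 genes, 3 of 17 (17.6%) for regulators of Foxp3, and 399 of 11718 (3.41%) for all genes compared.

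In the treatment test none of these lists held a gene that edgeR called. Of 27 tested regulatory T cell programme genes (Gpr83 was filtered out), 13 were higher and 14 lower under anti-PD-1 (median log2 fold change -0.06). Beside 11.4% of all genes, 1 of the 27 had an unadjusted p under 0.05. That gene was Plagl1, a zinc finger factor, with 0.724 ± 0.761 CPM in anti-PD-1 tumours and 3.46 ± 8.07 CPM in IgG2a tumours (SD, n = 8 each). Its log2 fold change of -2.25 ± 1.06 (SE) was 0.23 without IgG2a replicate 7. The costimulatory receptor Icos had a mean of 4.66 ± 2.68 CPM in anti-PD-1 tumours and 3.04 ± 1.45 CPM in IgG2a tumours (SD, n = 8 each), and its log2 fold change was 0.61 ± 0.36 (SE). Nrp1, a semaphorin and VEGF co-receptor, had -1.26 ± 0.63 and Irf4, a factor of activated lymphocytes, -1.07 ± 0.55 (log2 fold change and SE), which became 0.12 and -0.13 without IgG2a replicate 7.

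Of the ligands, receptor subunits and partners, 16 of 18 were tested, Il2 and Il12a being filtered out, and 6 had a higher and 10 a lower estimate (median -0.17). Il6st, the gp130 chain that interleukin-27 signals through, was the 1 gene of the 16 with an unadjusted p under 0.05, beside 11.4% of all genes. It had a mean of 107 ± 21.7 CPM in anti-PD-1 tumours and 162 ± 78.0 CPM in IgG2a tumours (SD, n = 8 each), and no treated tumour exceeded the IgG2a median. Its log2 fold change was -0.60 ± 0.22 (SE, adjusted p = 0.434 by edgeR) and -0.33 without IgG2a replicate 7. Tgfbr2, a TGF-beta receptor, had a log2 fold change of -0.85 ± 0.42, Il27, which pairs with Ebi3, one of 0.44 ± 0.30, and Itgb8, an integrin chain that activates TGF-beta held by GARP, one of -0.79 ± 0.55 (SE). None passed, and the Tgfbr2 estimate was -0.13 and the Itgb8 estimate -0.27 without IgG2a replicate 7.

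Regulators of Foxp3 leaned to lower estimates, with 13 of 17 lower and 4 higher under anti-PD-1 (median -0.24), and 4 of 17 had an unadjusted p under 0.05, beside 11.4% of all genes. Smad3, the TGF-beta signal transducer, had a mean of 38.5 ± 6.14 CPM in anti-PD-1 tumours and 48.7 ± 4.49 CPM in IgG2a tumours (SD, n = 8 each). Stat5b, which carries the interleukin-2 signal, had a mean of 79.2 ± 7.83 CPM in anti-PD-1 tumours and 94.6 ± 9.41 CPM in IgG2a tumours (SD, n = 8 each). For both genes no treated tumour exceeded the IgG2a median. The log2 fold changes were -0.34 ± 0.10 for Smad3 and -0.26 ± 0.08 for Stat5b (SE, adjusted p = 0.434 each by edgeR), and leaving out single tumours gave -0.39 to -0.28 and -0.28 to -0.21. Foxo1 had -1.76 ± 0.72 and Nfatc2 -0.78 ± 0.37 (log2 fold change and SE), which were -0.38 and -0.31 without IgG2a replicate 7. Both genes are expressed in many cell types, as are Smad3 and Stat5b.

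Exons of Foxp3 and Ebi3 overlap those of other genes, so some of their reads may not be unique to them. For Ikzf2, 1.24% of the exon bases are shared with Gm29114. The libraries do not mark strand, and 12.9% of the Foxp3 exon bases are shared with Ccdc22 on the opposite strand, a gene with 1458 to 3440 reads per tumour. The r of Foxp3 with Ccdc22 across tumours was 0.10. Another 8.15% are shared with Gm36995 and 5.81% with Ppp1r3f, both opposite, and 18.6% with Flicr on the same strand, which had 0 to 26.4 reads. For Ebi3, 23.4% of the exon bases are shared with Gm16712, which had 7.06 to 87.1 reads. How the reads were divided between such genes was not measured.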

How the data were processed

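The 9 genes and all lists were chosen with earlier results of these data known. Poly(A) RNA was made into non-directional libraries, per the labels' protocols. Per the file headers, the deposited tables give each transcript its estimated count (not always whole), the authors' TPM and 2 length columns. The quantifier is not given in the sources used here; the submitters' processing notes name GRCm38, edgeR and limma. Identifiers matched GENCODE vM21 for 114200 of 115088 transcripts, and 0.167 to 0.217% of the reads were in unmatched ones. Counts were summed per gene, rounded, filtered with filterByExpr (minimum count 10, minimum total 15), scaled by TMM and tested in R 4.3.3 by edgeR 4.0.16 (robust quasi-likelihood, 8 against 8, Benjamini-Hochberg, threshold 0.05). Ratios used limma 3.58.1 with trend on log2 CPM (prior count 2) and exact permutation tests. Intervals of fold changes are at 95%. In the limma ratio fit all genes share a denominator, so the spread of that denominator enters every gene. The SE and interval of that fit largely follow a variance trend over all genes, not each gene's own spread between tumours. Named genes were the 9, the 10 nearest to Foxp3 (protein coding, mean log2 CPM of at least 0) and up to 4 of smallest unadjusted p from each list. Ctla4, Tnfrsf4 and the genes that overlap exons were named after their values were seen. Levels of Cd4 are not given in TPM, since a short transcript inflates it in some tumours. Alternatives were other scalings, filters, tools (DESeq2 1.42.0 and limma-voom), TPM with pseudocounts of 1 and 0.1, a length offset, protein-coding transcripts, animal number range and leaving out tumours. The marker relations, the animal number ranges for correlations and the removal of group means were added after the data were seen.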

Additional observations from a re-analysis of the deposited data

Results flagged for a closer look

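In 22 groups of 8 tumours (the 9 genes and the Foxp3 ratios, each under anti-PD-1 and under IgG2a), 6 held a tumour whose gap to its nearest neighbour exceeded 0.526 of the group's range. For separate groups of normally distributed values, chance gives such a gap in about 1 in 20. These CPM values can be skewed and the groups share tumours, so that share is no measure for the 6 of 22. Among anti-PD-1 tumours, replicate 5 stood apart for Il2ra with 7.18 CPM, where the next had 4.14 CPM, and for Ccr8 with 1.50 CPM, where the next had 0.602 CPM. That tumour also had the highest summed T cell markers, 80.2 CPM. Among IgG2a tumours, replicate 1 stood apart for Il2ra with 6.56 CPM, where the next had 4.34 CPM. IgG2a replicate 7 stood apart for Lrrc32 with 86.8 CPM, where the next had 13.1 CPM, for Il10 with 6.85 CPM, where the next had 3.63 CPM, and for Ebi3 with 24.9 CPM, where the next had 12.7 CPM. It was the tumour with the highest adipocyte, erythroid and endothelial markers.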

How the results depend on the processing

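None of the 9 genes passed an adjusted p of 0.05 in any of the 30 alternatives to the edgeR fit or the 19 alternatives to the limma ratio fit. In the whole table DESeq2 called 4 genes and the other alternatives 0. Izumo1r, Ccr8, Il2ra, Ikzf2, Lrrc32 and Itgae kept the direction of their log2 fold change in every alternative to the edgeR fit that tested them. Of the ratios to Cd3e, those of Izumo1r and Itgae alone kept their direction, and of the ratios to Cd8a all did but Il10 (-0.41 to 0.25) and Ebi3 (-0.47 to 0.14). For Foxp3 the log2 fold change was -0.31 to 0.0062 when single tumours were left out, for Il10 -0.24 to 0.29, for Ebi3 -0.28 to 0.12, for Cd3e -0.38 to 0.073, for Cd4 -0.58 to 0.036, for Plagl1 -2.78 to 0.23, for Nrp1 -1.41 to 0.12, for Tgfbr2 -0.99 to -0.13, for Itgb8 -1.004 to -0.27 and for Foxo1 -2.09 to -0.38. With limma-voom Il10 was at 0.025. With quality weights the log2 fold change was 0.31 for Il10, 0.24 for Ebi3, 0.17 for Cd4, -0.067 for Cd8a, 0.24 for Itgb8, 0.33 for Plagl1, 0.19 for Nrp1 and 0.015 for Foxo1. DESeq2 gave 0.27 for Plagl1 and 0.11 for Nrp1. With the 3 tumours that stood apart left out together, it was 0.38 for Il10, 0.16 for Ebi3, 0.097 for Cd4, 0.015 for Tgfbr2, 0.49 for Itgb8, 1.25 for Plagl1, 0.23 for Nrp1 and 0.29 for Foxo1, and the Foxp3 to Cd3e difference was -0.019. Leaving out single tumours gave 0.0019 to 0.25 for the Foxp3 to Cd3e difference and -0.52 to -0.16 for the Foxp3 to Cd8a difference. Of the 11 Foxp3 relations, 3 passed on TPM (Cd4 had r = 0.28), 1 without the 2 farthest tumours, and 0 within anti-PD-1 tumours, within IgG2a tumours or in the lower-numbered animals, each with fewer tumours except TPM. The r with Foxp3 changed sign for Ikzf2 on TPM (0.070), with library size alone (0.023) and without the 2 farthest tumours (0.036), for Lrrc32 within anti-PD-1 tumours (0.18), for Il10 within IgG2a tumours (-0.10) and in the lower-numbered animals (-0.25), and for Itgae in the lower-numbered animals (-0.024). The cause was not tested. No paired analysis was possible because the replicate numbers are in accession order and pair no animals. Low counts limit Izumo1r and Ccr8.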
